A study of Mus musculus with 10 samples.

Results

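Described here are 8 mouse genes of the complement and coagulation cascades, chosen by symbol with earlier results of these data known. They are C8a, C8b and C6 of the membrane attack complex, C1s1, Masp1 and Colec11 of complement's starting steps, and coagulation factors F10 and F11. They are measured by 11 probe sets annotated with exactly 1 of these symbols, of 12411 probe sets tested on the Affymetrix MG_U74Bv2 array (8 of 7542 genes that have a probe set of 1 symbol). C6 had 3 probe sets and F10 had 2, while each other gene had 1. No filter on low values was applied, so all 11 entered every test.

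Complement is a cascade of plasma proteins, most of them made by hepatocytes, that marks microbes and opens pores in their membranes. It is started by recognition molecules with attached serine proteases, and it ends in the membrane attack complex, in which C6 and the chains of C8 are assembled in order. Coagulation is a related cascade of liver-made serine proteases, in which factor XI acts early and factor X stands where the pathways meet before thrombin.

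The arrays hold liver RNA of 5 groups of male mice. TgSREBP-1a and TgSREBP-2 mice carry human transgenes for the nuclear, transcriptionally active part of SREBP-1a or of SREBP-2, transcription factors that drive lipid synthesis. They and their wild type littermates were 12 to 16 weeks old and for 2 weeks ate a diet high in protein and low in carbohydrate, which raises the transgenes' expression. Scap-/- mice lost SCAP, the escort that brings SREBP precursors to their activation, through MX1-Cre. They and their wild type mice were 10 to 12 weeks old, ate chow, and all had 4 injections of polyinosinic-polycytidylic acid, with livers taken 14 days after the last. MX1-Cre is switched on by interferon and is not specific to hepatocytes, and the sources used here do not name the promoter of the transgenes. Each group is 1 RNA pool of 5 livers, hybridised to 2 arrays. The p-values therefore weigh a difference between pools against the error of hybridisation only, and say nothing of the spread between mice. In whole liver, fewer cells of a type and less RNA per cell cannot be told apart.

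All values are log2 expression values, and a difference of 1 is a 2-fold change. Array medians lay between 5.63 and 5.66, and duplicate arrays correlated at 0.987 to 0.994. Every array of the Scap study and the second TgSREBP-2 array correlated best with an array of another group. The targeted gene Scap, on its brighter probe set, read 7.94 and 7.75 in Scap-/- and 9.24 and 8.89 in the wild type pool of its study, a difference of -1.22 ± 0.18 (SE; limma, adjusted p = 0.018). This call was lost when either Scap-/- array or wild type array 1 was left out, or with only the arrays of that study (adjusted p up to 0.23). The dim second Scap probe set differed by 0.12, and the sources used here do not place either probe set with respect to the deletion. Of the 11 member probe sets 9 were brighter on average than the median of all probe sets. So was Apoa1, the measured 1 of 10 hepatocyte markers.

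The promoters of C8a, C8b, C6 and C1s1 are shown because these 4 genes were lower together in TgSREBP-1a liver than in wild type. RefSeq gave a promoter for 7 of the 8 genes in build GRCm38.p6, and none was found for Masp1. Each line gives the stretch before the start of the gene, 5′ to 3′ on the gene's strand, taken from the 250 bases before the start and shortened where another start of the same gene lies within them. Capitals mark matches to the motifs named after the sequences. C8a lies at chr4:104876488-104876648 on the minus strand, C8b at chr4:104766067-104766316 on the plus strand, C6 at chr15:4726960-4727066 on the plus strand and C1s1 at chr6:124542393-124542609 on the minus strand.
C8a: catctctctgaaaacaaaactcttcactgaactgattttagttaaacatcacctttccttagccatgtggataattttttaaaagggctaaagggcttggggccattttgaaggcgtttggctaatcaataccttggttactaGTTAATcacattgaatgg
C8b: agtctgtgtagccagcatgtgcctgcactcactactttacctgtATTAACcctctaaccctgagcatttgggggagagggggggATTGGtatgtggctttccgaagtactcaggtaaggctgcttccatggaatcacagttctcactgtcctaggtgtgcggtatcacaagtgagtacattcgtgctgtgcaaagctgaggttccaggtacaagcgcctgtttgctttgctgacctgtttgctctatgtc
C6: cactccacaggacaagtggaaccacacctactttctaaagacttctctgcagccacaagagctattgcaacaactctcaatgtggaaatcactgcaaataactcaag
C1s1: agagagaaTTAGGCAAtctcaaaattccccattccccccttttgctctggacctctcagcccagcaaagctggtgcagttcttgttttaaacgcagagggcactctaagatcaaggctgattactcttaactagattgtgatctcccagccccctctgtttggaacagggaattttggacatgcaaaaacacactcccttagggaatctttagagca

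Each window of 300 bases (250 before the start and 50 after it) was searched on both strands for 5 motifs, which do not overlap each other in the matches found. GTTAAT, the core of HNF1 sites of liver genes, occurred once in C8a and once in C8b, and 7.1% of 32851 RefSeq windows hold it. CCAAT occurred in C8b and in F10, and 37.4% of windows hold it. TTGCNNAA, a C/EBP motif, occurred in C1s1 and F11, with 10.8% of windows holding it. C1s1 had 2 windows, of which the second held none of the 5 motifs. The sterol regulatory element TCACNCCAC, held by 1.24% of windows, and the E-box CACGTG, held by 7.15%, matched none of the 7 promoters. These matches describe letters in a window and were not tested as binding sites.

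C8a and C8b encode the alpha and beta chains of complement C8, the component that first inserts into the target membrane. C8a read 6.43 and 6.30 in TgSREBP-1a, 9.05 and 8.83 in TgSREBP-2, against 9.13 and 8.80 in their wild type littermates. It read 9.29 and 8.51 in Scap-/- and 9.39 and 8.84 in the wild type pool of that study. Only the TgSREBP-1a arrays stood apart, more than 2 log2 units below all others. The means of the other 4 pools lay between 8.90 and 9.11, closer together than the largest gap between duplicates (0.78). C8a was lower in TgSREBP-1a than in wild type by 6.06-fold (-2.60 ± 0.24, limma, adjusted p = 0.00018), rank 7 among the falls of all 12411 probe sets. Against TgSREBP-2 the difference was -2.58 ± 0.24 (limma, adjusted p = 0.00037). Between TgSREBP-2 and wild type it was -0.02, with a 95% interval of -0.56 to 0.52, and between Scap-/- and its wild type -0.22 (-0.76 to 0.32).

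C8b read 8.14 and 7.88 in TgSREBP-1a, 9.73 and 9.70 in TgSREBP-2, against 10.40 and 10.07 in wild type littermates. It read 10.49 and 10.18 in Scap-/- and 10.81 and 10.50 in the wild type pool of that study. TgSREBP-1a was again lowest by a wide margin, and here the TgSREBP-2 arrays also lay below every remaining one. C8b was lower in TgSREBP-1a than in wild type by 4.67-fold (-2.22 ± 0.16, limma, adjusted p = 3.2e-05), and than in TgSREBP-2 by 3.25-fold (-1.70 ± 0.16, adjusted p = 0.00033). The difference of TgSREBP-2 from wild type, -0.52 (-0.87 to -0.17), did not pass (limma, adjusted p = 0.4). Scap-/- differed from its wild type by -0.32 (-0.67 to 0.03), without overlap, but did not pass (limma, adjusted p = 0.66). From the highest pool to the lowest the order was Scap wild type, Scap-/-, wild type littermates, TgSREBP-2 and TgSREBP-1a, and the arrays of Scap-/- and wild type littermates overlapped.

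**Figure D1:**
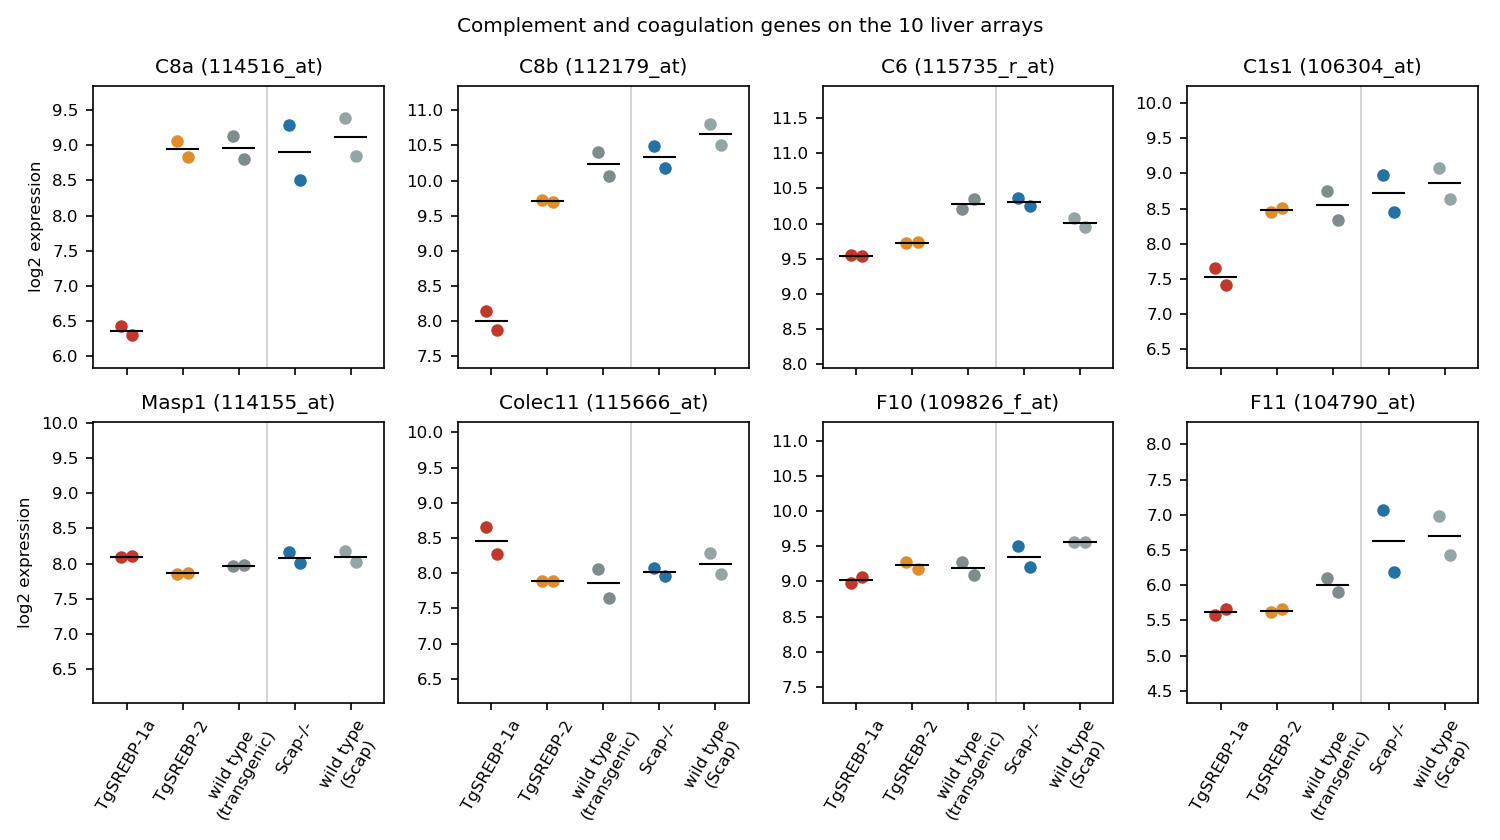
Log2 expression of the 8 genes (1 panel each, the brightest probe set of each gene) in TgSREBP-1a, TgSREBP-2, their wild type littermates, Scap-/- and its wild type; points are the 2 arrays of a pool and short lines their mean, and every panel spans the same number of log2 units. C8a and C8b drop in TgSREBP-1a (6.30 to 6.43 and 7.88 to 8.14), C6 and C1s1 less so, while Masp1 and F10 stay nearly level.

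C6 joins the growing complex before C8. Its brightest probe set read 9.55 and 9.54 in TgSREBP-1a, 9.73 and 9.73 in TgSREBP-2, against 10.20 and 10.35 in wild type littermates. It read 10.37 and 10.25 in Scap-/- and 10.08 and 9.95 in the wild type pool of that study. Unlike C8a, C6 was low in both transgenic pools, whose arrays all lay below the other 6. It fell in TgSREBP-1a by 0.73 ± 0.10 relative to wild type (limma, adjusted p = 0.002). In TgSREBP-2 the difference from wild type was -0.55 ± 0.10 (limma, adjusted p = 0.044), under the 1.5-fold limit of a call. The transgenic pools differed from each other by -0.19, with an interval of -0.40 to 0.03. Scap-/- stood 0.29 above its wild type (0.08 to 0.51), without overlap, but did not pass (limma, adjusted p = 0.55).

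The second bright C6 probe set read 9.25 and 8.92 in TgSREBP-1a, 9.37 and 9.05 in TgSREBP-2, against 10.25 and 9.90 in wild type littermates. It fell in TgSREBP-1a by 0.99 ± 0.20 (limma, adjusted p = 0.026), while the difference of -0.87 ± 0.20 in TgSREBP-2 did not pass (adjusted p = 0.17). The call was lost when any 1 of the 4 arrays compared was left out (adjusted p up to 0.27), while that of the brightest probe set held. These probe sets thus gave the same order of the 5 pools, and the second placed both transgenic pools farther below wild type. The third was dim, with duplicates up to 0.80 apart, and it differed from wild type by -0.55 in TgSREBP-1a and 0.23 in TgSREBP-2 (limma, adjusted p = 0.6 and 0.88). The array design marks all 3, and both of F10, as probe sets whose probes did not meet its usual selection rules.

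C1s1 encodes C1s, the protease of the C1 complex that cleaves C4 and C2 to start the classical pathway. It read 7.66 and 7.41 in TgSREBP-1a, 8.44 and 8.50 in TgSREBP-2, against 8.75 and 8.34 in wild type littermates. It read 8.98 and 8.46 in Scap-/- and 9.07 and 8.64 in the wild type pool of that study. As for C8a, the TgSREBP-1a arrays lay below all others and the remaining 4 pools overlapped, between 8.34 and 9.07. C1s1 was lower in TgSREBP-1a than in wild type by 2.01-fold (-1.01 ± 0.20, limma, adjusted p = 0.024) and than in TgSREBP-2 by 1.92-fold (-0.94 ± 0.20, adjusted p = 0.043). Both calls were lost when 1 array was left out: that against wild type without either TgSREBP-1a array or the first wild type array, and that against TgSREBP-2 without any 1 of the 4 arrays compared (adjusted p up to 0.26 and 0.25). TgSREBP-2 differed from wild type by -0.07 (-0.52 to 0.38), and Scap-/- from its wild type by -0.14 (-0.58 to 0.31).

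Colec11 encodes a collectin that binds sugars on microbes and starts the lectin pathway with proteases such as Masp1. It read 8.65 and 8.27 in TgSREBP-1a, 7.89 and 7.88 in TgSREBP-2, against 8.06 and 7.65 in wild type littermates. It was the member with its highest mean in TgSREBP-1a, opposite in direction to C8a, and its arrays did not overlap those of wild type. The difference of 0.60 ± 0.17 (1.52-fold, interval 0.24 to 0.97) did not pass (limma, adjusted p = 0.11). It was 0.03 in TgSREBP-2 (-0.34 to 0.40), and in Scap-/-, at 8.07 and 7.96 against 8.28 and 7.98 in wild type, it was -0.12 (-0.48 to 0.25). Masp1, the lectin pathway protease, read 8.09 and 8.10 in TgSREBP-1a, 7.85 and 7.87 in TgSREBP-2, against 7.96 and 7.98 in wild type littermates. It averaged 8.08 in Scap-/- and 8.10 in the wild type pool of that study, with first arrays 0.16 and 0.15 above the second ones. Its pools lay within 0.24 of each other, the narrowest range among the 8 genes, and no comparison passed. The intervals held its difference from wild type between -0.09 and 0.34 in TgSREBP-1a and between -0.23 and 0.20 in Scap-/-.

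F10 encodes factor X, the protease that turns prothrombin into thrombin. Its bright probe set read 8.97 and 9.06 in TgSREBP-1a, 9.28 and 9.17 in TgSREBP-2, 9.28 and 9.09 in wild type littermates, 9.50 and 9.21 in Scap-/- and 9.56 and 9.56 in the wild type pool of that study. Its TgSREBP-1a arrays lay just below the wild type ones, with a difference of -0.17 (-0.42 to 0.09). Wild type littermates and the Scap wild type pool differed more widely, by -0.37. The second F10 probe set was dim, with differences between -0.22 and 0.11. F11 encodes factor XI, which activates factor IX. It read 5.58 and 5.66 in TgSREBP-1a, 5.62 and 5.66 in TgSREBP-2, against 6.10 and 5.90 in wild type littermates. It read 7.06 and 6.18 in Scap-/- and 6.98 and 6.42 in its wild type pool. The transgenic pools coincided below their wild type (-0.38 and -0.36, limma, adjusted p = 0.76 for each), and all 3 lay below the Scap study. F11 was thus the member that split by study: wild type littermates differed from the Scap wild type pool by -0.71 ± 0.25 (interval -1.26 to -0.15), which did not pass over all probe sets (limma, adjusted p = 0.36).

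**Figure D2:**
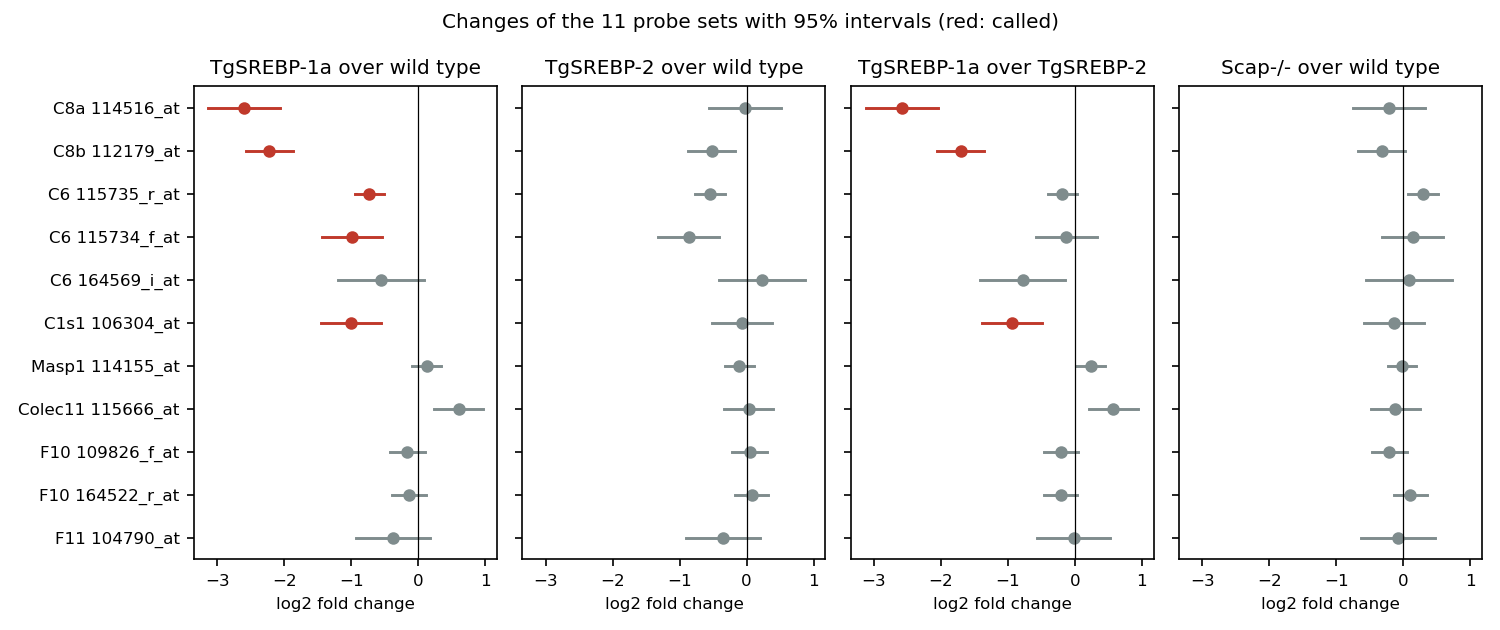
Log2 fold change with 95% interval of each of the 11 member probe sets in TgSREBP-1a and TgSREBP-2 against wild type, TgSREBP-1a against TgSREBP-2, and Scap-/- against its wild type; red points passed limma at an adjusted p under 0.05 and 1.5-fold. The red points are C8a, C8b, C1s1 and the bright C6 probe sets, all on the negative side (C8a -2.60), and no red point appears for TgSREBP-2 or Scap-/- against wild type.

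Counted over all members, 5 of 11 member probe sets (4 of 8 genes) fell and 0 rose in TgSREBP-1a relative to wild type, where 0.814% of all probe sets fell, 1.36% rose and 2.18% did either. The median of the 8 genes was -0.56, against -0.02 over all probe sets. On 9 of 11 probe sets both TgSREBP-1a arrays lay below both wild type arrays, against 23.4% of all probe sets, and on 2 both lay above, against 19%. Of the 11, 6 had an unadjusted p under 0.05, against 10.3% of all. The membrane attack genes fell in all 3 measured cases, while the coagulation factors had no call. The members were chosen with earlier results of these data known, so the shares here and below describe them and do not test the cascades.

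Between TgSREBP-2 and wild type, 0 of 11 member probe sets were called, where 0.5% of all probe sets were, although limma gave 3 an unadjusted p under 0.05 (7.92% of all). These were C8b and the bright C6 probe sets. On 5 of 11 both TgSREBP-2 arrays lay below both wild type arrays, against 24.4% of all, and the median of the 8 genes was -0.09, against -0.02. Between TgSREBP-1a and TgSREBP-2, 3 of 11 were lower in TgSREBP-1a and 0 higher, where 0.677% of all probe sets were lower, 1.18% higher and 1.86% called either way. On 7 of 11 both TgSREBP-1a arrays lay below both TgSREBP-2 arrays, against 20.7% of all, and on 2 above, against 25.3%, and 6 of 11 had an unadjusted p under 0.05, against 14.7% of all. Those 3 (C8a, C8b and C1s1) were called lower against both wild type and TgSREBP-2, a pattern of 0.395% of all probe sets. These comparisons share the TgSREBP-1a arrays, so they are not independent. C6 was the gene called against wild type and not against TgSREBP-2.

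In Scap-/- liver 0 of 11 member probe sets were called, where 0.274% of all were (0.258% lower and 0.0161% higher), and 1 (C6) had an unadjusted p under 0.05 in limma, against 7.74% of all. On 2 of 11 both Scap-/- arrays lay below both wild type arrays, against 14.4% of all, and on 1 above, against 20%. The median of the 8 genes was -0.13, against 0.02 over all probe sets. The change in TgSREBP-1a was also tested against the change in Scap-/-, studies that differ in diet, age and injections. This difference was -2.38 ± 0.34 for C8a, -1.91 ± 0.22 for C8b and -1.03 ± 0.14 for the brightest C6 probe set (limma, adjusted p = 0.0062, 0.0017 and 0.0044). These were 3 of 11 member probe sets, all lower, where 0.274% of all were lower, 1.03% higher and 1.31% called either way. For C1s1 (-0.87 ± 0.29) and Colec11 (0.72 ± 0.23) it did not pass (limma, adjusted p = 0.28 and 0.27).

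**Figure D3:**
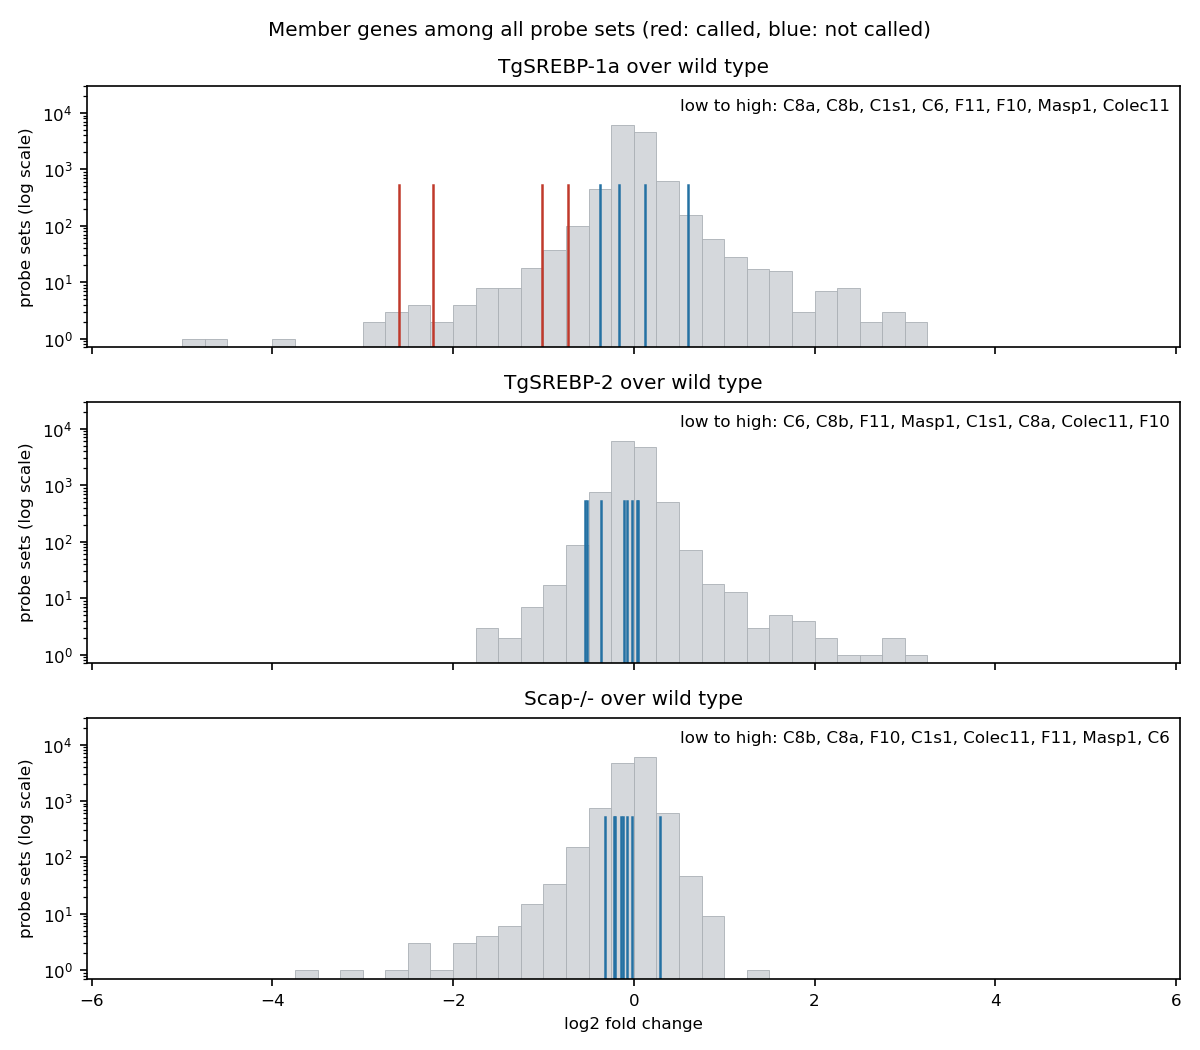
Number of probe sets (log axis) by log2 fold change for all 12411 probe sets, with the 8 genes as vertical lines. The panels are TgSREBP-1a and TgSREBP-2 against wild type, and Scap-/- against its wild type. C8a and C8b lie far in the lower tail for TgSREBP-1a (-2.60 and -2.22). For Scap-/- they lie nearer the centre (-0.22 and -0.32), at ranks 1224 and 627 among the falls of all probe sets.

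Between wild type littermates of the transgenic lines and the Scap wild type pool, whose diet, age and injections differ, 0 of 11 were called, where 0.508% of all probe sets were called. In limma 4 of the 11 had an unadjusted p under 0.05 (9.7% of all): F11, F10, C8b and C6. The littermates lay wholly below the other pool on 4 of 11 (17.4% of all) and wholly above it on 1 (24.5% of all). For F11 (-0.71), F10 (-0.37) and C8b (-0.42) the littermates of the transgenic study were the lower pool, and for C6 (0.26) the higher. The changes of C8a and C8b in TgSREBP-1a were wider than any of these, and those of F10 and F11 were narrower than their own difference between wild type pools.

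Pooled over the 5 groups, the median gap between the arrays of a pool was 0.22 over the members and 0.12 over all probe sets. The members' gap was the wider in 4 groups and the narrower in TgSREBP-2, at 0.05 against 0.13. In all groups together the first array read higher in 38 of 55 member pairs, against 49.4% of pairs over all probe sets. In Scap-/- this held for 10 of 11 members, and for 6 of 11 in TgSREBP-1a. Comparing first arrays with first and second with second gave -2.70 and -2.50 for C8a and -2.26 and -2.19 for C8b in TgSREBP-1a against wild type, so that the fall was present in each.

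C8a and C8b are neighbours on mouse chromosome 4 in RefSeq, with 0 protein-coding genes starting between them. The genes around them were examined after the values of the pair had been seen. Of the 10 nearest measured genes, 5 on each side, with 18 probe sets, 0 were called by limma in any of the 5 comparisons. Over all probe sets 0.274% to 2.18% were called in these comparisons. At such shares 18 probe sets are too few for 0 calls to set the neighbours apart. Their means over the arrays ran from 3.69 to 8.93. Dab1 (4.11 and 4.22) and Oma1 (4.50), the nearest on the C8b side, lay below the median of all probe sets (5.65), where a fall can be hidden. In TgSREBP-1a 1 of the 18 had an unadjusted p under 0.05, and their log2 fold changes ran from -0.39 to 0.25, against -2.60 for C8a and -2.22 for C8b. Among them are Prkaa2, a catalytic subunit of AMP-activated kinase, and Acot11, an acyl-CoA thioesterase.

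**Figure D4:**
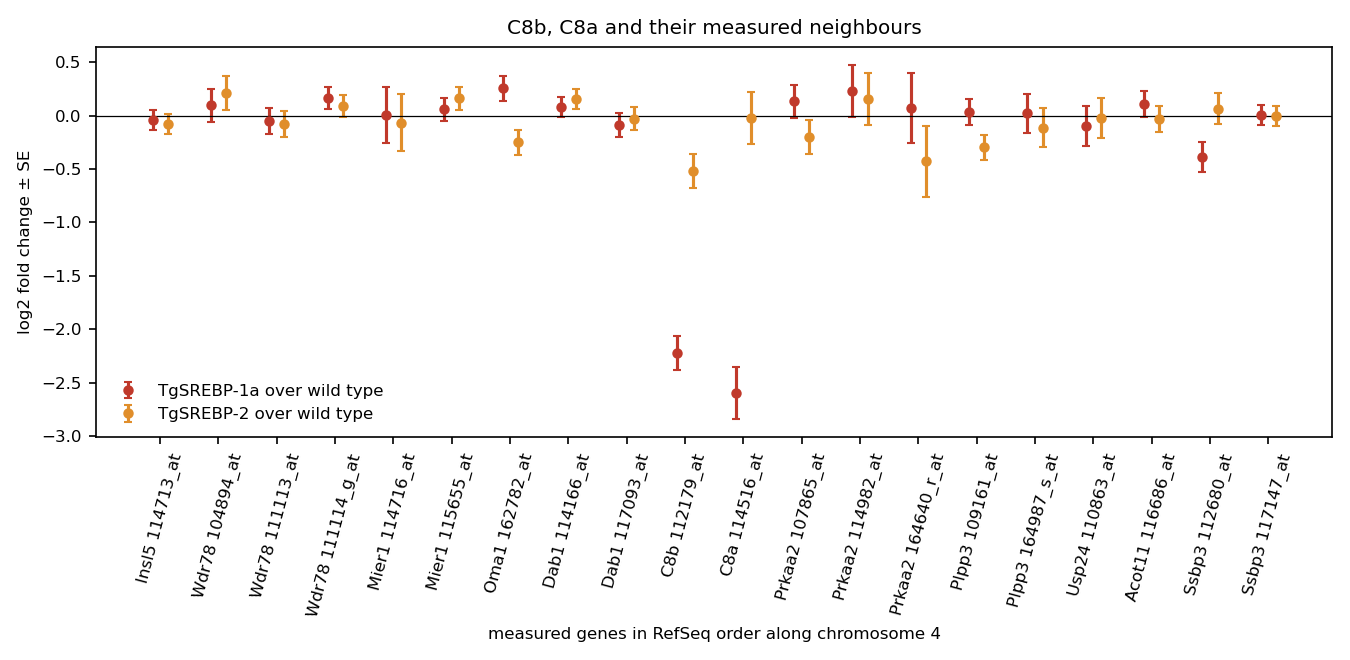
Log2 fold change (± SE) in TgSREBP-1a and TgSREBP-2 against wild type for C8b, C8a and the 5 nearest measured genes on each side, in their order on chromosome 4, with 1 point for each probe set. In TgSREBP-1a C8b and C8a stand at -2.22 and -2.60 and the neighbours within -0.39 to 0.25.

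Other genes of the cascades came from lists of complement and coagulation genes. Of 98 listed genes 20 were measured, among them the 8 members. In TgSREBP-1a 5 of the 20 fell and 0 rose, the 1 gene outside the members being Susd4, a membrane protein that restrains complement. Susd4 read 6.76 and 6.53 in TgSREBP-1a, 7.33 and 7.40 in TgSREBP-2, 7.66 and 7.36 in wild type littermates, 8.07 and 7.71 in Scap-/- and 8.04 and 7.84 in its wild type pool. TgSREBP-1a differed from wild type by -0.86 ± 0.15 and from TgSREBP-2 by -0.72 ± 0.15 (limma, adjusted p = 0.01 and 0.034). The call against wild type was lost without the second TgSREBP-1a array or the first wild type array, and that against TgSREBP-2 without any 1 of the 4 arrays compared (adjusted p up to 0.13 and 0.23). The medians over the 12 other listed genes were 0.00 in TgSREBP-1a, -0.06 in TgSREBP-2 and 0.08 in Scap-/-. In TgSREBP-1a 5 of the 12 had an unadjusted p under 0.05 in limma, against 10.3% of all probe sets. In TgSREBP-2 and in Scap-/- limma called 0 of the 12, where 0.5% and 0.274% of all probe sets were called. There 1 and 2 of the 12 had an unadjusted p under 0.05, against 7.92% and 7.74% of all.

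By step, 3 of 7 genes of the membrane attack complex were measured and all 3 fell in TgSREBP-1a. Of 19 genes of classical and lectin initiation, 4 were measured and C1s1 fell, while Fcna, a ficolin that recognises sugars, differed by -0.06. Of 17 regulators 4 were measured. Besides Susd4, Cpn2, the regulatory subunit of the carboxypeptidase that inactivates anaphylatoxins, read 7.09 and 6.79 in TgSREBP-1a against 8.33 and 7.87 in wild type, a difference of -1.16 ± 0.27 just outside the threshold (limma, adjusted p = 0.052). Its catalytic subunit Cpn1 differed by -0.25 and Cd55, which dissolves the convertases, by 0.28. Of 9 complement receptors 2 were measured: Cd93 differed by 0.41 (limma, adjusted p = 0.05) and Cr2 by 0.03.

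Of 19 coagulation genes 5 were measured, and limma called 0 in TgSREBP-1a against wild type, with 1 at an unadjusted p under 0.05. Fgl1 is on this list as a fibrinogen-like protein secreted by liver, not as a clotting factor. It read 8.84 and 8.66 in TgSREBP-1a, 10.04 and 10.01 in TgSREBP-2, against 9.90 and 9.41 in wild type littermates. It read 8.16 and 7.61 in Scap-/- and 8.25 and 7.72 in the wild type pool of that study. TgSREBP-1a differed from TgSREBP-2 by -1.28 ± 0.22 (limma, adjusted p = 0.013), a call lost without either TgSREBP-1a array or the first TgSREBP-2 array (adjusted p up to 0.12). Against wild type its difference of -0.90 ± 0.22 did not pass (limma, adjusted p = 0.063). It was also the 1 of the 20 genes called between the wild type pools, where the littermates of the transgenic study stood 1.67 ± 0.22 higher (limma, adjusted p = 0.0093), a call lost without their first array or with only those 4 arrays (adjusted p up to 0.12). F3, the tissue factor that starts clotting, differed in TgSREBP-1a by 0.22 and F13a1, a subunit of the clot-linking factor XIII, by -0.03. Tfpi, the inhibitor of tissue factor, was the measured 1 of 10 anticoagulants (0.09), and Vkorc1l1, a vitamin K epoxide reductase, the 1 of 3 vitamin K genes (0.08 on its brighter probe set and 0.38 on its dimmer one). None of these 4 was called. The lists of the alternative pathway and of fibrinolysis had 0 measured genes.

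Of 34 other plasma proteins of the liver 4 were measured, and 3 fell in TgSREBP-1a: Saa4, an apolipoprotein of the serum amyloid A family, Itih4, an inter-alpha-inhibitor heavy chain, and Fetub, a fetuin (-2.74 ± 0.16, -1.51 ± 0.26 and -1.44 ± 0.13, limma, adjusted p = 7.2e-06, 0.0097 and 0.00016). The call of Itih4 was lost without either TgSREBP-1a array or the first wild type array (adjusted p up to 0.12), and those of Saa4 and Fetub held without each array in turn. Apoa1 differed by -0.42 (limma, adjusted p = 0.72). Of 19 liver transcription factors 4 were measured. Hnf4a, a regulator of many hepatocyte genes, differed by -0.42 in TgSREBP-1a (limma, adjusted p = 0.48), and Ppara, the receptor that drives fatty acid oxidation, fell by 1.15 ± 0.19 (adjusted p = 0.0087), a call lost without the same arrays as that of Itih4 (up to 0.1). Cebpd and Nr0b2 were not called.

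For members whose pool means lay at least 1 log2 unit apart, the 3 most similar genes were taken by Pearson r over the 10 arrays among 294 probe sets with a range as wide. The points are arrays of 5 pools and share pool and study, so r describes these pools only. C8a was most like Saa4 (0.985), Crot, a peroxisomal carnitine acyltransferase (0.981), and Cyp4f14, a cytochrome P450 (0.97). Without the TgSREBP-1a arrays these fell to between 0.702 and 0.822 over 8 arrays, and the means of those pools lay within 0.22 of each other for C8a. C8b was most like Cyp4f14 (0.993), Cmah, which hydroxylates sialic acid (0.988), and the sulfotransferase gene Sult2a8 (0.985), and here r stayed between 0.909 and 0.971. All 5 of these genes were lower in TgSREBP-1a than in wild type, by -1.52 for Crot to -2.74 for Saa4. The choice by r over the same arrays favours such genes, so this is no separate result.

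C1s1 was most like Nat8f2, of an N-acetyltransferase family (0.983), Hao1, the peroxisomal glycolate oxidase (0.976), and Acnat1, a peroxisomal acyltransferase (0.975), with 0.903 to 0.974 without TgSREBP-1a. F11 was most like Magt1, which takes part in N-glycosylation and magnesium transport (0.964), Pnpla7, a lysophospholipase (0.959), and Fzd8, a Wnt receptor (0.955). Without TgSREBP-1a these were 0.942 to 0.988, so that the pattern of F11 did not rest on that pool. Between members, C8a and C8b had r = 0.953 over 10 arrays and 0.503 without TgSREBP-1a, and C8b and C1s1 had 0.963 and 0.806.

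**Figure D5:**
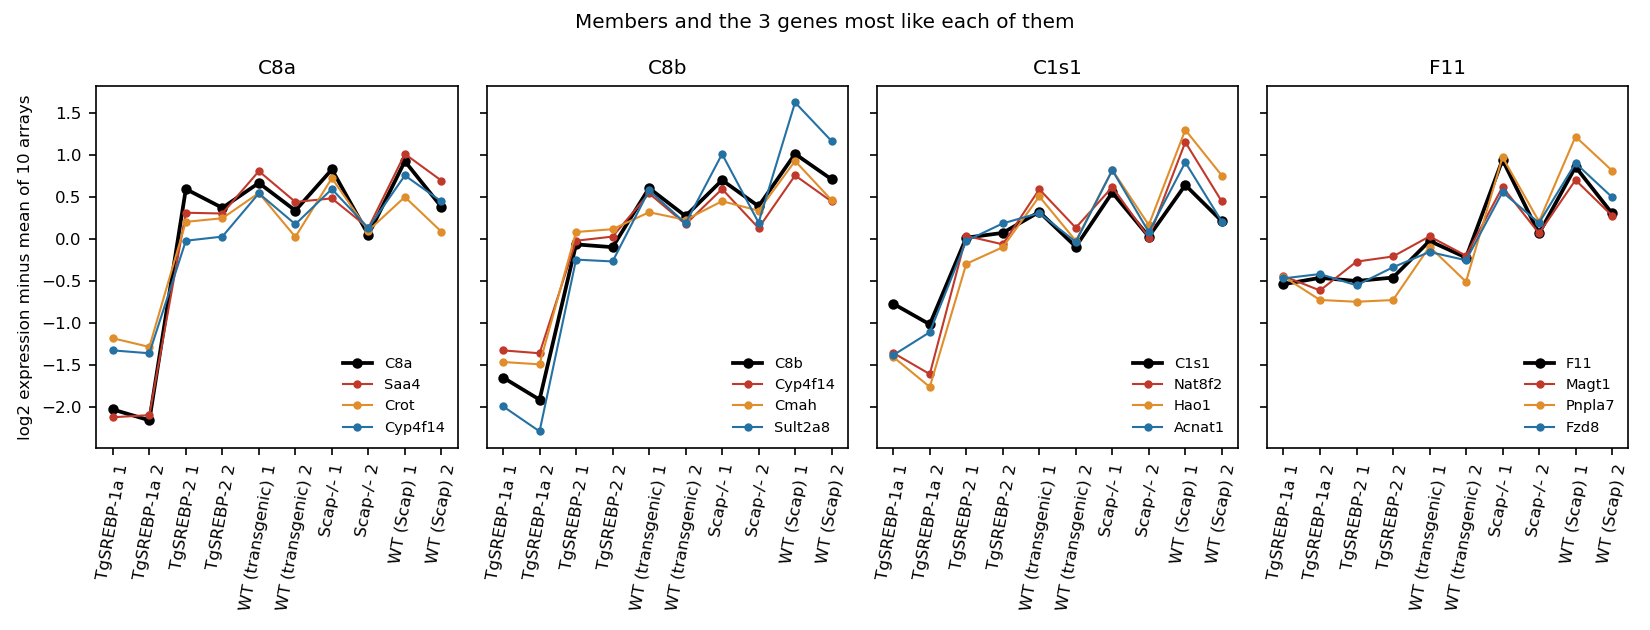
Log2 values of C8a, C8b, C1s1 and F11 and of the 3 genes most similar to each, on the 10 arrays, with each probe set's mean over the arrays subtracted. The C8a, C8b and C1s1 panels drop on the TgSREBP-1a arrays (C8b r = 0.993 with Cyp4f14), and the F11 panel separates the transgenic study from the Scap study.

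Markers of other cell types moved in the same comparison. Of 9 pancreatic acinar markers 3 were measured (Cpb1, Cela3b and Ctrc). Their summed linear level was 227 to 228 in TgSREBP-1a, 3217 to 4228 in TgSREBP-2, 1970 to 2642 in wild type littermates, 260 to 269 in Scap-/- and 912 to 1114 in its wild type pool. The sum was lowest in TgSREBP-1a and next lowest in Scap-/-. In TgSREBP-1a Cpb1 (-4.67 ± 0.21) and Cela3b (-3.84 ± 0.16) fell (limma, adjusted p = 1.1e-06 and 8.7e-07), while Ctrc differed by -0.22 (adjusted p = 0.51). Of 13 Kupffer cell markers 2 were measured, summing to 64.2 to 69.3 in TgSREBP-1a, 33.2 to 41.2 in TgSREBP-2, 40.5 to 41.4 in wild type littermates, 32.8 to 36.9 in Scap-/- and 38.8 to 40.4 in its wild type pool. The TgSREBP-1a sum was the highest, and Cd163, a scavenger receptor, rose by 0.91 ± 0.15 (limma, adjusted p = 0.008). The other measured Kupffer cell marker was not called, and the median of the 2 was 0.49. Of 11 endothelial markers 4 were measured, summing to 646 to 688 in TgSREBP-1a, 564 to 601 in TgSREBP-2, 595 to 623 in wild type littermates, 596 to 625 in Scap-/- and 610 to 637 in its wild type pool. Lyve1, a hyaluronan receptor, rose in TgSREBP-1a by 0.64 ± 0.10 (limma, adjusted p = 0.0059). The other 3 endothelial markers were not called, and the median of the 4 was 0.16. The call of Cd163 was lost without any 1 of the 4 arrays compared, and that of Lyve1 without the first TgSREBP-1a array or either wild type array (adjusted p up to 0.089 and 0.09). The hepatocyte marker Apoa1 read 7425 to 8046 on the linear scale in TgSREBP-1a, 4762 to 10222 in TgSREBP-2, 9988 to 10767 in wild type littermates, 8660 to 9710 in Scap-/- and 10242 to 10733 in its wild type pool. Its shift in TgSREBP-1a was -0.42, and the TgSREBP-2 duplicates were farther apart than that. Of 9 stellate cell markers 2 were measured: Colec11 itself, and Lrat, a retinol-storing enzyme, which differed by 0.01. The measured cholangiocyte (2 of 6), lymphocyte (2 of 10) and erythroid (1 of 6) markers were not called in TgSREBP-1a against wild type, and of 8 neutrophil markers 0 were measured. In TgSREBP-2 the erythroid marker, the transferrin receptor Tfrc, rose 2.83-fold relative to wild type (limma, adjusted p = 0.016) and read 70.5 to 88.2 on the linear scale, against 27.2 to 28.5 in wild type littermates. That call was lost without any 1 of the 4 arrays compared (adjusted p up to 0.17). Ctrc rose there by 1.51 ± 0.10 (limma, adjusted p = 8.9e-05). Both were therefore lower in TgSREBP-1a than in TgSREBP-2, the comparison in which C8a, C8b and C1s1 were called, by -1.38 ± 0.23 for Tfrc and -1.72 ± 0.10 for Ctrc (limma, adjusted p = 0.01 and 1.5e-05), the call of Tfrc being lost without either TgSREBP-1a array or the second TgSREBP-2 array (up to 0.1). No marker is at 0, since these values have no true zero, and the part of these cell types in the falls of C8a, C8b, C6 and C1s1 was not tested.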

How the data were processed

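Liver RNA of 5 pools (5 mice each, 20 µg of RNA) was measured on 2 arrays per pool. Deposited are log2 values per probe set, made by RMA per the submitters' processing notes (background correction, quantile normalization and summary of probes; no version), while the series' design text names other software of the manufacturer. They were used as deposited. The 66 controls among 12477 probe sets were dropped. Of the 12411 tested, 10581 carry 1 symbol in the platform's annotation, 178 several and 1652 none.

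All 10 arrays entered 1 limma 3.58.1 fit (lmFit, eBayes, R 4.3.3) with a mean for each of the 5 groups, two-sided, with Benjamini-Hochberg adjustment over all probe sets. A call needs an adjusted p under 0.05 and at least 1.5-fold. Errors are limma standard errors and intervals are 95% limma intervals, with n = 2 arrays per group. Precision is limited by the number of arrays (median standard error 0.115 on the log2 scale). The brightest probe set stands for a gene, except that each similar gene is given on its probe set with the highest r.

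The members and the gene lists were chosen with earlier results of these data known. Named besides the members were listed genes called in any comparison, up to 3 bright genes of lists with fewer than 2 calls, and the most similar genes. The fit was tested on simulated data. Alternatives (arrays left out, arrays of 1 study, replicate block, scaling, prior, dim probe sets, array weights, fold limit) are described in the closing part.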

Additional observations from a re-analysis of the deposited data

Results flagged for a closer look

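The changes of 3 member genes differed between the transgenic lines by the direct test of TgSREBP-1a against TgSREBP-2 (limma over all probe sets). C8a differed by -2.58, C8b by -1.70 and C1s1 by -0.94. In TgSREBP-1a C8a read 6.43 and 6.30, against 9.05 and 8.83 in TgSREBP-2. C8b read 8.14 and 7.88 in TgSREBP-1a, against 9.73 and 9.70 in TgSREBP-2, which itself lay below wild type without passing. C1s1 read 7.66 and 7.41 in TgSREBP-1a, against 8.44 and 8.50 in TgSREBP-2. The calls of C8a and C8b held in 14 of 14 alternatives, and that of C1s1 in 9 of 14.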

How the results depend on the processing

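The 5 member probe sets called in TgSREBP-1a against wild type became 3 to 4 when 1 array was left out, and 3 at a limit of 2-fold. C8a (-2.77 to -2.44) and C8b (-2.39 to -2.06) were called there in 14 of 14 alternatives, the brightest C6 probe set in 13, C1s1 in 11 and the second C6 probe set in 9. A replicate block (hybridisation 1 or 2) gave 6, with Colec11 added. In TgSREBP-2 the 0 calls became 1 with the replicate block, with only the arrays of the same study or with quantile normalization (the second C6 probe set), and 1 with no fold limit (the brightest). For the difference between the changes in TgSREBP-1a and Scap-/-, 3 calls became 6 with the replicate block. The labels do not tie a number to a batch. Deviations of arrays with the same number correlated at 0.60 in the Scap study and at 0.06 to 0.41 in the transgenic study. Between the studies these correlations were 0.34 to 0.47 for TgSREBP-1a and wild type littermates, and -0.15 and -0.17 for TgSREBP-2. Scap-/- and the wild type pools kept 0 member calls under every alternative run. Counts over all probe sets moved more: 270 in TgSREBP-1a (133 to 352), 62 in TgSREBP-2 (25 to 124), 34 in Scap-/- (5 to 91), 231 between the lines (87 to 384) and 63 between the wild type pools (13 to 145). Of 4103 alternative values of single probe sets or genes named, 136 changed sign, 0 of them called, the largest of size 0.65. The restriction to 1 study was not run for the wild type pools, which come from different studies. The cause of these shifts was not tested. The 2 hybridisations of 1 pool limit every value.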
